A study of Marchantia polymorpha with 6 samples.

Results

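In thalli of the liverwort Marchantia polymorpha grown with arsenite, 24 of 19472 listed genes gave few or no reads without arsenite and a low signal in every library with it. They were chosen from the read counts themselves. CPM is a gene's reads per 1000000 reads of its library, by file total. A gene entered if its mean over the 3 control libraries was below 0.5 CPM and each of the 3 arsenite libraries had 1 CPM or more. The thresholds were met by 26 genes. The glutathione S-transferase MpGST38 and MpSQC2 were left out by ID. So were male V chromosome genes and 2 groups of neighbours on chromosomes 3 and 4, none of which met the thresholds. Because the rule used the difference between groups, that difference is described below and not tested.

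The arsenite group comprised 3 samples of thallus, the flat plant body, grown on half-strength Gamborg medium with 2.5 µM sodium arsenite. The control group comprised 3 samples grown on the same medium with none. All plants had the genotype Cam1, which is known as a male wild-type line, and were kept at 21 °C. The labels give no plant age, exposure time or number of plants per sample. The p-values set group differences against the spread between these samples, and that spread may therefore be partly technical. Poly(A) RNA was sequenced, and libraries held 26579324 to 31573867 counted reads with arsenite and 26691102 to 47532310 in controls. In a principal component analysis of the 500 most variable genes, the groups separated on component 1 (59.4% of the variance), and arsenite replicate 3 lay apart from arsenite replicates 1 and 2 on component 2 (22.4%).

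Arsenite is a trivalent form of arsenic that enters plant cells through aquaporins and binds to thiol groups of proteins and of glutathione. Plants restrict its damage by pumping it out of the cytoplasm and by binding it to thiol peptides. The classes named by the symbols of some of the 24 genes are these. Cupins are proteins built on a small barrel fold, a family that in flowering plants includes the germin-like proteins of the cell wall and the seed storage globulins. Enzymes of glycoside hydrolase family 16 (GH16) include those that cut and rejoin xyloglucan in the cell wall. Class III peroxidases are secreted enzymes that use hydrogen peroxide, and late embryogenesis abundant (LEA) proteins are known from tolerance of drying.

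A symbol was available for 7 of the 24 genes, in the table of the MpTak2_v7.1 assembly. They were the cupins MpCupin69, MpCupin75 and MpCupin36, the GH16 gene MpGH16.16, the peroxidase MpPOD154, the LEA gene MpLEA1, and MpCAT1, whose symbol has several readings and is given no role here. The other 17 are known by ID only. The 24 genes were spread over all 8 autosomes, with 6 on chromosome 5, 5 on chromosome 3, 4 on chromosome 2, 3 on chromosome 7, 2 each on chromosomes 1 and 6, and 1 each on chromosomes 4 and 8. No pair stood within 2 places of each other in gene order.

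**Figure D1:**
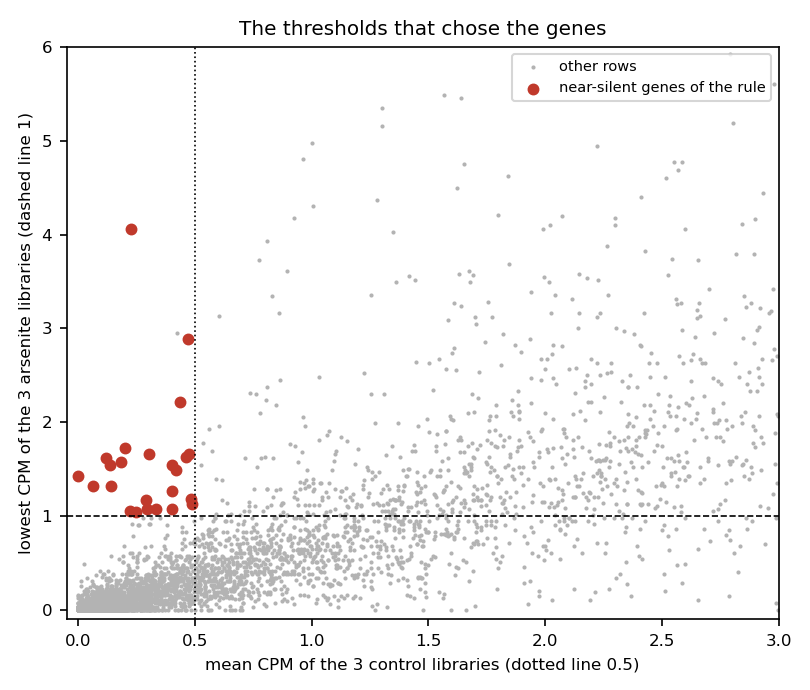
The lowest CPM among the 3 arsenite libraries (vertical axis) is plotted against the mean CPM of the 3 control libraries (horizontal axis) for rows in the range shown. Red points are the 24 near-silent genes, above the dashed line at 1 CPM and left of the dotted line at 0.5 CPM, and the grey points inside the same corner are MpGST38 and MpSQC2, left out by ID.

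The levels reached with arsenite were low. Arsenite means ran from 1.21 to 6.09 CPM with a median of 1.95 CPM, and control means from 0 to 0.489 CPM with a median of 0.300 CPM. In all 13544 genes tested, the median gene had 25.5 CPM with arsenite and 25.9 CPM in controls. With arsenite the 24 genes stood between percentiles 9.83 and 23.8 of the tested genes by mean CPM. Together they gave 62.6, 54.4 and 49.7 CPM in arsenite replicates 1, 2 and 3, against 6.04, 9.37 and 6.18 CPM in control replicates 1, 2 and 3. Per gene and library these are 28 to 334 reads with arsenite and 0 to 34 reads in controls. CPM is not divided by transcript length. Levels of 1 gene can be compared between groups, while comparisons between genes, such as the percentiles above, also depend on transcript length.

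The label of genes switched on holds in the strict sense for 1 of the 24. Mp1g25830 had 0 reads in all 3 controls, and the other 23 had some control reads. For those 23 the ratio of mean CPM ran from 2.89 to 24.8 with a median of 6.51. The log2 fold changes fitted over all genes had a median of 2.81 over the 24 genes, unmoved when Mp1g25830 was set to its lower bound, against -0.004 over all tested genes. Every arsenite library lay above every control library for all 24. The same was true of 12.1% of all tested genes, and nothing is read from the count because the rule used these values. All 24 passed the low-count filter through their arsenite libraries, and 17 were called higher by edgeR at a false discovery rate of 0.05, where 2.04% of all tested genes were. Again the rule used this contrast, and nothing is read from that count. It fell to 8, 1 and 13 without arsenite replicate 1, 2 or 3, and to 3, 7 and 6 without control replicate 1, 2 or 3. Among tested genes with a control mean below 0.5 CPM, 27 of 466 (5.79%) were called higher and 1 was called lower. Of the 27, 17 were among the 24 genes chosen by this contrast, so the share is no separate background for them. The other 10 included 2 genes left out by ID. Genes with a low control mean can pass the same filter through reads in 1 group, and how many did was not counted.

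**Figure D2:**
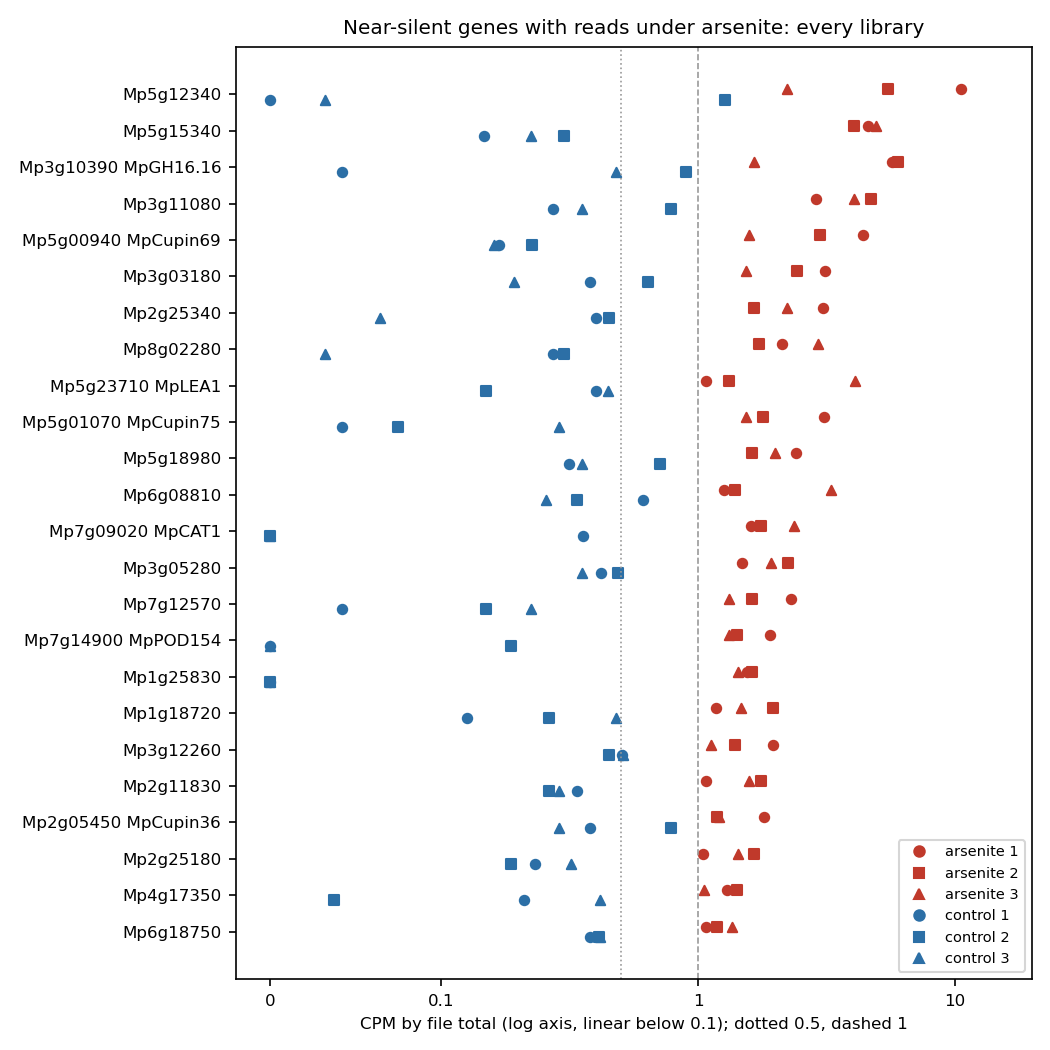
CPM of each near-silent gene in every library, on an axis that is logarithmic above 0.1 and linear below it, with genes ordered by arsenite mean. Red symbols are arsenite replicates 1, 2 and 3, blue symbols control replicates 1, 2 and 3. No red symbol lies left of a blue one in the same row, and Mp5g12340, at the top, spans the widest range in both groups.

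Among the named genes, the cupins MpCupin69 and MpCupin75 are described first. MpCupin69 (Mp5g00940) had 4.40, 2.98 and 1.58 CPM in arsenite replicates 1, 2 and 3, and 0.168, 0.225 and 0.160 CPM in control replicates 1, 2 and 3. Its mean was 2.99 ± 1.41 CPM with arsenite and 0.184 ± 0.0352 CPM in controls (SD, n = 3 each). The fitted log2 fold change was 4.04 ± 0.48, where the error of every log2 fold change is its standard error. The 3 controls were nearly equal, while arsenite replicate 1 was 2.79 times arsenite replicate 3. MpCupin75 (Mp5g01070) had 3.10, 1.79 and 1.54 CPM with arsenite and 0.0421, 0.0749 and 0.288 CPM in controls. Its log2 fold change was 4.05 ± 0.66, and 5.22 without control replicate 3. Here too arsenite replicate 1 was highest, and control replicate 3 stood above the other controls.

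MpCupin36 (Mp2g05450), on another chromosome, differed less. It had 1.81, 1.18 and 1.20 CPM with arsenite and 0.379, 0.787 and 0.288 CPM in controls, a log2 fold change of 1.57 ± 0.45. This was the smallest fold change among the 24, and the gene lay just inside the limit on the control mean, at 0.485 ± 0.266 CPM.

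MpCupin69 and MpCupin75 belong to a run of cupin genes on chromosome 5, numbered MpCupin63 to MpCupin76 in chromosomal order. Of these 14 genes 9 were tested, and the 7 tested genes that were not near-silent by the rule gave 1 call, upward. Among all tested genes, 2.04% were called higher. The edges of the run were set from the symbols after the values had been seen. MpCupin66 (Mp5g00890) was that call. It had 3.67, 3.32 and 0.903 CPM with arsenite and 0.295, 0.300 and 0.192 CPM in controls (log2 fold change 3.33 ± 0.58, adjusted p = 0.0306). Every adjusted p in the text is from the quasi-likelihood test of edgeR, adjusted by the Benjamini-Hochberg method. It missed the rule only through arsenite replicate 3, which lay just under 1 CPM. Its call was kept without arsenite replicate 3 and lost when any of the other 5 libraries was left out, with log2 fold changes of 3.02 to 3.74 over the 6 refits and an adjusted p of up to 0.118.

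Expression in the run was patchy. MpCupin68 had 30.9, 12.02 and 7.30 CPM with arsenite and 1.01, 3.18 and 2.21 CPM in controls (log2 fold change 3.01 ± 0.64, adjusted p = 0.0517). MpCupin70 had 28.3, 19.2 and 12.5 CPM with arsenite and 4.65, 10.6 and 6.56 CPM in controls (1.48 ± 0.40, adjusted p = 0.0912). MpCupin71 had 38.1, 10.7 and 6.70 CPM with arsenite and 2.44, 7.76 and 4.90 CPM in controls (1.91 ± 0.71, adjusted p = 0.187). These 3 genes did not pass, and each was highest in arsenite replicate 1 and lowest in arsenite replicate 3, as MpCupin69 and MpCupin75 were. Being highest in arsenite replicate 1 was not particular to the run. It held for 27 of 45 tested cupin genes outside the rule (60%), against 36.6% of all tested genes. MpCupin63 had 27.9, 23.1 and 49.8 CPM with arsenite and 11.99, 16.2 and 8.93 CPM in controls (1.47 ± 0.35, adjusted p = 0.0680), and was highest in arsenite replicate 3 instead. MpCupin64 had 1.58, 1.83 and 2.37 CPM with arsenite and 2.69, 2.88 and 2.14 CPM in controls, with groups that overlapped. MpCupin76, the gene next to MpCupin75, had 1.71, 1.18 and 0.301 CPM with arsenite and 0.274, 0.375 and 0.288 CPM in controls (1.81 ± 0.61, adjusted p = 0.154), and its groups overlapped as well.

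The remaining 5 genes of the run were under 0.5 CPM in both groups. MpCupin67, MpCupin72 and MpCupin73 had 0 reads in every library, for which 3 reads per library would be 0.0631 to 0.113 CPM. Of the 12 genes of the run outside the rule, DESeq2 called 4 higher, limma-voom called 0, and edgeR gave an unadjusted p under 0.05 for 6. Those 6 were higher, where 10.8% of all tested genes were higher at that limit. The 9 listed genes of other kinds that lie between these cupins had too few reads to be tested. Counts of closely related copies are uncertain, because no source says how reads that fit several genes were handled.

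**Figure D3:**
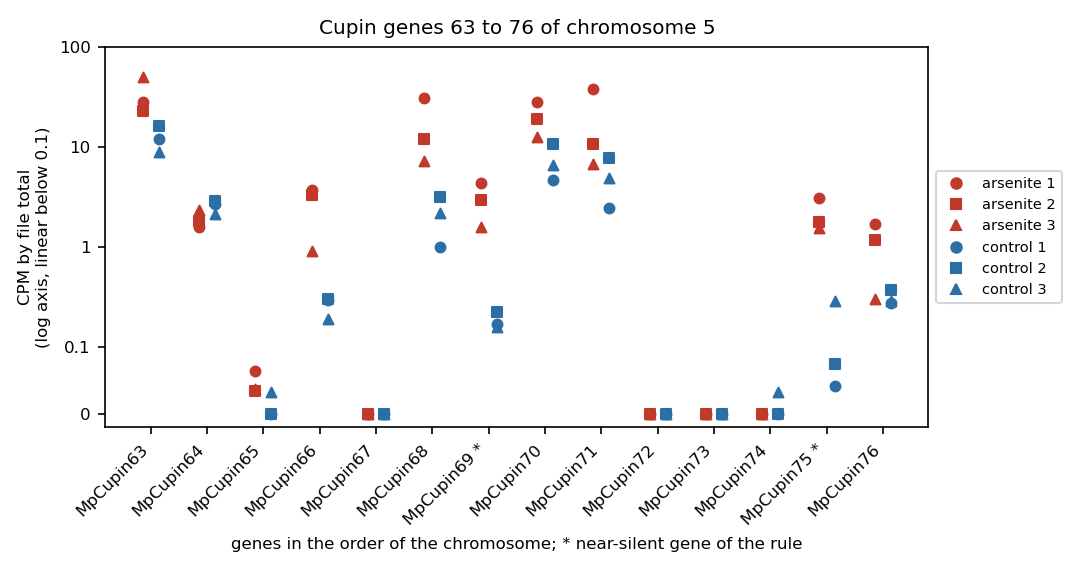
CPM of MpCupin63 to MpCupin76 in chromosomal order, on an axis that is logarithmic above 0.1 and linear below it, with arsenite libraries in red left of control libraries in blue. MpCupin69 and MpCupin75, marked by asterisks, have controls below 0.3 CPM, MpCupin68, MpCupin70 and MpCupin71 reach 28.3 to 38.1 CPM in arsenite replicate 1, and MpCupin67, MpCupin72 and MpCupin73 lie at 0.

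Beyond the run, 38 further cupin genes that were not near-silent by the rule were tested, of which 1 was called higher and 3 lower. Of these 4 calls 1, a fall, was kept whichever library was left out. MpCupin15 (Mp2g01920) had 1.87, 1.32 and 1.58 CPM with arsenite and 9.32, 9.33 and 7.46 CPM in controls (log2 fold change -2.42 ± 0.23, adjusted p = 0.00561). Its neighbour by number, MpCupin16 (Mp2g01930), had 10.1, 9.11 and 9.10 CPM with arsenite and 34.0, 33.9 and 24.7 CPM in controls (-1.69 ± 0.16, adjusted p = 0.00654), and lost the call without arsenite replicate 2 (adjusted p = 0.0555). Over all 45 tested cupins outside the rule, 2 were higher, 3 were lower and 40 did not pass, with a median log2 fold change of 0.31. Among all tested genes, 2.04% were called higher and 2.14% lower.

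The GH16 gene MpGH16.16 (Mp3g10390) was high in arsenite replicates 1 and 2 only. It had 5.70, 5.99 and 1.66 CPM with arsenite and 0.0421, 0.899 and 0.480 CPM in controls, a log2 fold change of 3.32 ± 0.90. Means were 4.45 ± 2.42 CPM with arsenite and 0.474 ± 0.429 CPM in controls (SD, n = 3 each), so each SD was more than 50% of its mean. The gap between the groups was narrow, with arsenite replicate 3 at 1.66 CPM and control replicate 2 at 0.899 CPM.

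MpGH16.16 opens a run of 6 GH16 genes, MpGH16.16 to MpGH16.21, that stand next to each other on chromosome 3. Arsenite replicate 3 was the lowest arsenite library for all 6, and control replicate 2 the highest control for 5. MpGH16.18 had 4.69, 3.83 and 0.564 CPM with arsenite and 0.0842, 0.937 and 0.160 CPM in controls (log2 fold change 3.04 ± 1.04, adjusted p = 0.155), so its groups overlapped. MpGH16.19, the most read of the run, had 23.9, 14.6 and 7.37 CPM with arsenite and 3.37, 6.82 and 2.98 CPM in controls (1.82 ± 0.50, adjusted p = 0.0947). MpGH16.20 had 2.47, 2.78 and 0.150 CPM with arsenite and 0, 0.225 and 0.0640 CPM in controls. MpGH16.20 and MpGH16.17 failed the low-count filter. MpGH16.17 had 1.20, 0.982 and 0.188 CPM with arsenite and 0, 0.0749 and 0.128 CPM in controls, while MpGH16.21 stayed under 1 CPM in every library.

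Of the 3 tested genes of the run outside the rule, 0 passed with edgeR and limma-voom called 0. With edgeR 2 were higher at an unadjusted p under 0.05, against 10.8% of all tested genes. DESeq2, which applies another filter, called 4 of the 5 genes outside the rule higher. Over all 28 tested GH16 genes outside the rule, 3 were higher, 1 was lower and 24 did not pass, with a median log2 fold change of 0.49. Among all tested genes, 2.04% were called higher and 2.14% lower. The 3 higher genes, MpGH16.30, MpGH16.40 and MpGH16.42, were expressed in both groups, at means of 18.5, 296 and 840 CPM with arsenite and 6.76, 198 and 389 CPM in controls. Leaving out 1 library at a time ended their calls in 3, 6 and 5 of 6 refits.

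**Figure D4:**
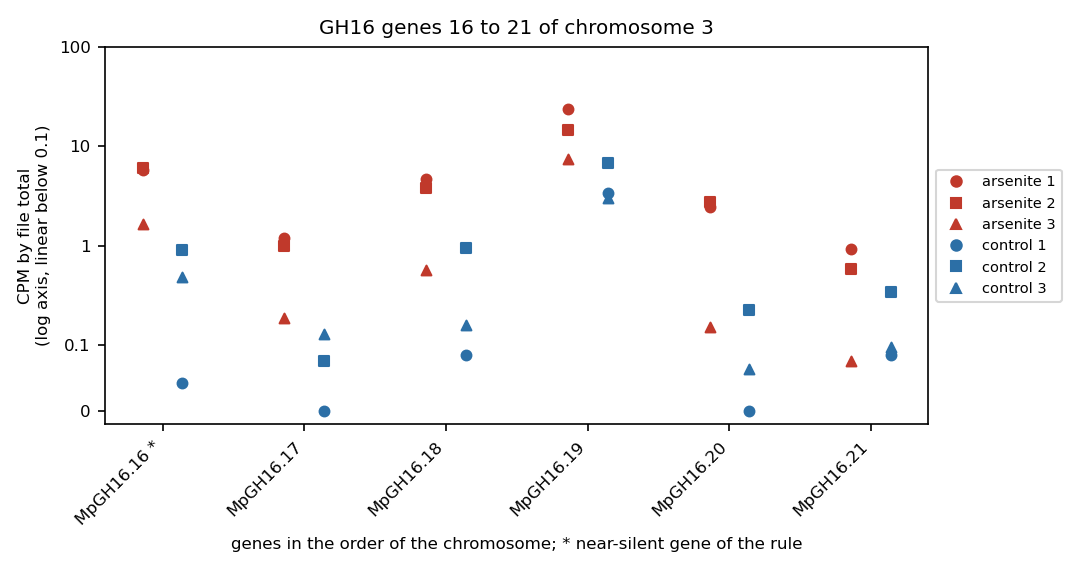
CPM of MpGH16.16 to MpGH16.21 in chromosomal order, on an axis that is logarithmic above 0.1 and linear below it, with arsenite libraries in red left of control libraries in blue. In every gene the red triangle, arsenite replicate 3, is the lowest red symbol, and MpGH16.16 is marked by an asterisk.

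The peroxidase gene MpPOD154 (Mp7g14900) had the largest ratio of means among the genes with any control reads, at 24.8. It had 1.90, 1.42 and 1.32 CPM with arsenite, from 35 to 60 reads, and 0, 0.187 and 0 CPM in controls, from 5 reads in replicate 2 alone. The fitted log2 fold change of 4.86 ± 0.94 was 4.09 without control replicate 1 and 8.71 without control replicate 2, which leaves controls at 0 reads and gives no bound. The arsenite libraries were alike, with a highest to lowest ratio of 1.44. Of 131 tested peroxidase genes outside the rule, 4 were higher, 11 were lower and 116 did not pass, with a median log2 fold change of 0.11. Among all tested genes, 2.04% were called higher and 2.14% lower. MpPOD154 was highest in arsenite replicate 1, as were 97 of these 131 genes (74.0%) among the arsenite libraries, against 36.6% of all tested genes. The opposite case was MpPOD153 (Mp7g14420), which had 0.0633, 0 and 0.0376 CPM with arsenite and 2.95, 1.20 and 0.832 CPM in controls (log2 fold change -5.44 ± 0.84, adjusted p = 0.0224). Its call was lost without arsenite replicate 1 or 2 and without control replicate 1 or 2, and log2 fold changes ran from -6.23 to -4.70 over the 6 refits.

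Other peroxidase genes with small adjusted p fell as well. MpPOD168 had means of 223 CPM with arsenite and 510 CPM in controls (log2 fold change -1.17 ± 0.14, adjusted p = 0.0123), a call lost without arsenite replicate 2 (adjusted p = 0.0765). MpPOD143, MpPOD83 and MpPOD74 had log2 fold changes of -2.15, -3.38 and -2.07, and each lost its call without arsenite replicate 2, control replicate 1 or control replicate 2, with adjusted p up to 0.0637, 0.0754 and 0.0906. The 4 genes called higher were MpPOD69, MpPOD131, MpPOD132 and MpPOD144. Their log2 fold changes over the 6 refits ran from 2.14 to 3.04, 0.952 to 1.13, 0.792 to 0.954 and 1.11 to 1.42. Their calls were lost in 5, 6, 5 and 6 of 6 refits.

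The LEA gene MpLEA1 (Mp5g23710) was raised mainly in arsenite replicate 3. It had 1.08, 1.32 and 4.10 CPM with arsenite and 0.400, 0.150 and 0.448 CPM in controls, a log2 fold change of 2.69 ± 0.65 that was 1.83 without arsenite replicate 3. Arsenite replicates 1 and 2 stood just above the limit of 1 CPM. Arsenite replicate 3 was also the highest arsenite library for 23 of 38 tested LEA genes outside the rule (60.5%), against 31.9% of all tested genes. Of these 38, 2 were higher and 36 did not pass, with a median log2 fold change of 0.48, and 16 higher and 4 lower had an unadjusted p under 0.05. Of all tested genes, 10.8% were higher at that unadjusted limit with edgeR, while 2.04% were called higher and 2.14% lower. MpLEA-like33 (Mp5g22700), one of the 2, was far from silent, with means of 115 CPM with arsenite and 27.5 CPM in controls (log2 fold change 2.08 ± 0.30, adjusted p = 0.0184), and lost its call without arsenite replicate 2, control replicate 1 or control replicate 3 (adjusted p up to 0.0721). MpLEA-like19 was the other, and its call was lost whichever library was left out.

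MpCAT1 (Mp7g09020) had 1.62, 1.76 and 2.37 CPM with arsenite and 0.358, 0 and 0 CPM in controls. Its log2 fold change was 3.74 ± 0.94. All 17 of its control reads came from control replicate 1, the most deeply sequenced library, and without it the fitted log2 fold change was 8.82, against controls at 0 reads. The 2 other tested genes with a MpCAT symbol did not pass, and neither had an unadjusted p under 0.05. They were expressed without arsenite, with MpCAT2 at means of 1339 CPM with arsenite and 1567 CPM in controls.

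Among the 17 genes without a symbol, Mp1g25830 and Mp5g15340 gave the most even signal. Mp1g25830 had 49, 48 and 38 reads with arsenite, or 1.55, 1.62 and 1.43 CPM, and 0 reads in each control. Against a floor of 3 reads over the whole control group, 0.0284 CPM, its mean of 1.54 ± 0.0986 CPM (SD, n = 3) was at least 54.0-fold higher. It was the only one of the 24 whose span overlaps a neighbour's in the table. That neighbour, Mp1g25840, had means of 10.9 CPM with arsenite and 8.26 CPM in controls and did not pass, and without a stated strand setting reads of the 2 genes cannot be told apart where they overlap.

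Mp5g15340 had 4.59, 4.06 and 4.93 CPM with arsenite and 0.147, 0.300 and 0.224 CPM in controls. Means were 4.53 ± 0.437 CPM with arsenite and 0.224 ± 0.0762 CPM in controls (SD, n = 3 each), a ratio of 20.2 and a log2 fold change of 4.39 ± 0.33. It had the highest minimum of the 24 in the arsenite libraries.

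Mp5g12340 was the opposite in evenness. It had 10.6, 5.48 and 2.22 CPM with arsenite and 0, 1.27 and 0.0320 CPM in controls, a log2 fold change of 3.94 ± 1.33. Arsenite replicate 1 was 4.77 times arsenite replicate 3, and 34 of its 35 control reads came from control replicate 2, without which the fitted log2 fold change was 8.56. Its SD was 4.21 CPM around a mean of 6.09 CPM with arsenite.

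Mp3g11080 had 2.88, 4.74 and 4.06 CPM with arsenite and 0.274, 0.787 and 0.352 CPM in controls. Mp8g02280 had 2.12, 1.73 and 2.93 CPM with arsenite and 0.274, 0.300 and 0.0320 CPM in controls. Mp7g12570 had 2.31, 1.62 and 1.32 CPM with arsenite and 0.0421, 0.150 and 0.224 CPM in controls. These 3 genes had log2 fold changes of 3.10, 3.47 and 3.74, with the lowest arsenite library at least 3 times the highest control. Mp3g11080 lies between MpDOXC15 and MpDOXC16, which had log2 fold changes of 0.34 and -0.19 and did not pass.

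Mp2g25340 had 3.07, 1.66 and 2.22 CPM with arsenite and 0.400, 0.450 and 0.0640 CPM in controls. Mp3g03180 had 3.14, 2.44 and 1.54 CPM with arsenite and 0.379, 0.637 and 0.192 CPM in controls. Mp5g18980 had 2.41, 1.62 and 1.99 CPM with arsenite and 0.316, 0.712 and 0.352 CPM in controls. Their log2 fold changes were 2.93, 2.59 and 2.17, and in each arsenite replicate 1 was the highest library. Mp6g08810 had 1.27, 1.39 and 3.31 CPM with arsenite and 0.610, 0.337 and 0.256 CPM in controls. It shared with MpLEA1 a high value in arsenite replicate 3 and low values in the 2 others.

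Mp3g05280 had 1.49, 2.23 and 1.92 CPM with arsenite and 0.421, 0.487 and 0.352 CPM in controls. Mp1g18720 had 1.17, 1.96 and 1.47 CPM with arsenite and 0.126, 0.262 and 0.480 CPM in controls. Mp2g11830 had 1.08, 1.76 and 1.58 CPM with arsenite and 0.337, 0.262 and 0.288 CPM in controls. In these 3 genes arsenite replicate 2 was highest and arsenite replicate 1 lowest, and their log2 fold changes were 2.18, 2.46 and 2.31. Mp2g25180 followed the same order, with 1.05, 1.66 and 1.43 CPM with arsenite and 0.231, 0.187 and 0.320 CPM in controls.

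Another 3 genes without a symbol had arsenite means under 1.5 CPM. Mp4g17350 had 1.30, 1.42 and 1.05 CPM with arsenite and 0.210, 0.0375 and 0.416 CPM in controls. Mp6g18750 had 1.08, 1.18 and 1.35 CPM with arsenite and 0.379, 0.412 and 0.416 CPM in controls. Mp3g12260 had 1.96, 1.39 and 1.13 CPM with arsenite and 0.505, 0.450 and 0.512 CPM in controls. Mp6g18750 and Mp3g12260 had tight controls and ratios of means of 3.00 and 3.05, the smallest after MpCupin36.

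Just outside the limit on the control mean of 0.5 CPM lay MpPPO48, Mp8g08440 and Mp8g11240, with control means of 0.526, 0.534 and 0.561 CPM and arsenite means of 2.93, 5.26 and 4.18 CPM. Just inside it were Mp3g12260, MpCupin36 and MpGH16.16, at 0.489, 0.485 and 0.474 CPM. Just outside the limit of 1 CPM in each arsenite library lay MpABCG5, MpPPO23 and Mp2g03610, whose lowest arsenite library had 0.982, 0.982 and 0.978 CPM. Just inside it were Mp2g25180, Mp4g17350 and Mp2g11830, at 1.05, 1.05 and 1.08 CPM.

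The 24 genes did not move in parallel among the arsenite libraries. Arsenite replicate 1 was highest for 10, replicate 2 for 8 and replicate 3 for 6, and the lowest was replicate 1 for 9, replicate 2 for 5 and replicate 3 for 10. Over all tested genes, 36.6%, 31.5% and 31.9% were highest in arsenite replicates 1, 2 and 3. The ratio of the highest to the lowest arsenite library had a median of 1.66 and ran from 1.14 for Mp1g25830 to 4.77 for Mp5g12340. It was under 1.5 for 7 genes and over 2 for 7. Seen by gene, MpCupin69, MpCupin75, MpPOD154, Mp5g12340, Mp3g03180, Mp3g12260 and Mp7g12570 were highest in arsenite replicate 1 and lowest in arsenite replicate 3, a list of 7 chosen by those values. Among the 23 genes with control reads, the highest control was replicate 2 for 12, replicate 3 for 8 and replicate 1 for 3.

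**Figure D5:**
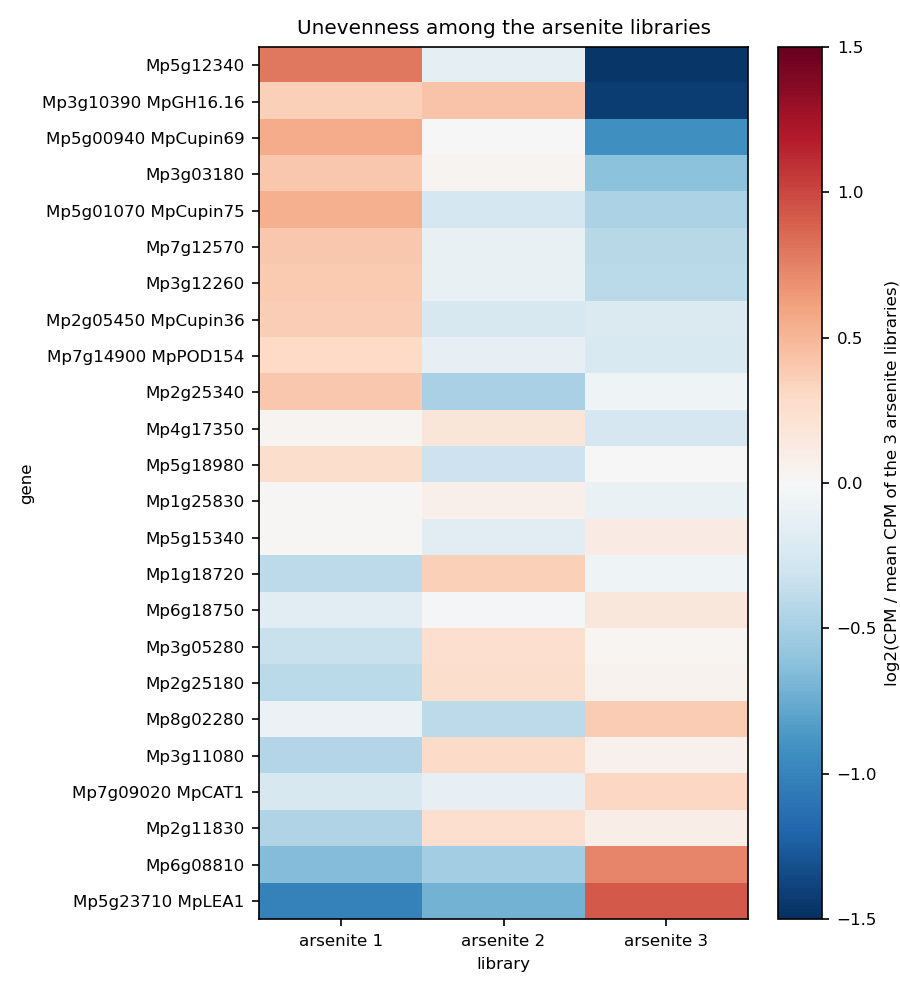
Colour gives log2 of CPM in each arsenite library over the mean CPM of the 3 arsenite libraries, for each near-silent gene, with genes ordered from those higher in arsenite replicate 1 to those higher in arsenite replicate 3. Mp5g12340 and MpGH16.16 at the top are low in replicate 3, and Mp6g08810 and MpLEA1 at the bottom are high there.

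Of 6378 genes with a control mean below 0.5 CPM, 6222 stayed below 1 CPM in all 3 arsenite libraries, 97 reached it in 1 library, 33 in 2 and 26 in all 3. Among the 97, 20 did so in arsenite replicate 1 alone, 6 in replicate 2 alone and 71 in replicate 3 alone. The mirrored rule, with each control at 1 CPM or more and an arsenite mean below 0.5 CPM, found 26 genes after the same IDs were left out.

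The 48 neighbours, taken as the next listed gene on each side, had 33 tested genes, of which 1 was higher, 1 was lower and 31 did not pass, shares close to the 2.04% higher and 2.14% lower of all tested genes, so nothing is read from them. Their median log2 fold change was 0.21, and 22 of the 33 were positive. DESeq2 called 3 higher. The neighbour that rose was Mp5g12350, next to Mp5g12340, with 108, 111 and 111 CPM with arsenite and 58.4, 51.1 and 68.3 CPM in controls (log2 fold change 0.92 ± 0.11, adjusted p = 0.0127). Its arsenite libraries were nearly equal, unlike those of Mp5g12340. The neighbour that fell was Mp3g05290, next to Mp3g05280, with 2.82, 2.27 and 4.03 CPM with arsenite and 18.4, 17.3 and 10.8 CPM in controls (-2.33 ± 0.31, adjusted p = 0.0143). Without arsenite replicate 2 or control replicate 1 both calls were lost, and that of Mp3g05290 also without control replicate 2, with adjusted p up to 0.0721 and 0.0733. Of the 48 neighbours 14 were below 0.5 CPM in both groups, and 16 had 10 CPM or more in controls.

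Across 19 lists of defence, detoxification, cell wall and regulatory families, 690 genes were tested, of which 23 were higher (3.33%) and 44 were lower (6.38%), against 2.04% and 2.14% of all tested genes. Of the lists, 2 held a near-silent gene, the peroxidases and the LEA proteins. Glutathione S-transferases had 5 of 32 genes higher and 0 lower with edgeR, where 5 lower had an unadjusted p under 0.05, DESeq2 called 2 lower and limma-voom 0. Chitinase families had 2 of 20 higher and 1 lower, glycosyltransferases 2 of 32 higher and 3 lower, polyphenol oxidases 2 of 42 higher and 2 lower, and cytochrome P450s 2 of 101 higher and 14 lower. Dirigent proteins, bHLH factors and ABC transporters had 1 gene higher each, of 39, 38 and 90, beside 4, 2 and 3 lower. Expansins, heat shock proteins, heat shock factors, lipoxygenases and the WRKY, MYB, AP2/ERF, bZIP and NAC transcription factors had 0 genes called higher by edgeR, while 18 higher had an unadjusted p under 0.05, DESeq2 called 7 and limma-voom 1. Among these, 2 lipoxygenases, 1 MYB and 1 AP2/ERF gene were lower. Of all tested genes, 10.8% were higher with an unadjusted p under 0.05 from edgeR.

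Among markers of other cell types and organs, 2 of the oil body cell list were called lower and none was called higher. The share called lower was 2.14% of all tested genes. MpPRM, a protamine of sperm, had 0 reads in the arsenite libraries and 1 read in a control. The 4 matched markers of the antheridium (male organ) and of sexual reproduction summed to 120 to 144 CPM with arsenite and 164 to 181 CPM in controls. Most of it came from MpRKD. Of these, 0 passed with edgeR, 3 lower had an unadjusted p under 0.05, and DESeq2 and limma-voom called 0. The 2 gemma cup markers summed to 33.4 to 57.3 CPM with arsenite and 33.8 to 42.2 CPM in controls, with 0 genes under an unadjusted p of 0.05. The 5 oil body cell markers, of cells that store terpenoids, summed to 44.0 to 73.0 CPM with arsenite and 83.6 to 119 CPM in controls, and MpSYP12B and MpABCG1 were called lower, calls lost in 6 and 5 of 6 refits without 1 library. In whole thalli fewer cells of a type and less RNA per cell cannot be told apart, and the part of cell composition in the values of the 24 genes was not tested. Of the thallus markers 2 had a symbol. MpRBCS, of the carbon-fixing enzyme, had 62.6 to 99.8 CPM with arsenite and 40.9 to 70.5 CPM in controls. The actin gene MpACTIN7 had means of 1660 CPM with arsenite and 1025 CPM in controls (log2 fold change 0.72 ± 0.14, adjusted p = 0.0400), a call lost whichever library was left out. No rhizoid marker was matched.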

How the data were processed

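Counts of reads per gene were used as deposited by the authors, 1 file per sample with no header. The file names give htseq-count on Galaxy as the counting tool. Aligner, versions, genome build and strand setting were not given in the sources used here. Each file listed 19472 IDs. Gene symbols came from the MpTak2_v7.1 table by locus number, matching 17671 of 18391 locus tags. The table served for names and gene order. No sequence was used here.

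CPM was computed by file total. Fold changes are arsenite over control, from edgeR 4.0.16 in R 4.3.3 (quasi-likelihood test, TMM factors, default low-count filter, Benjamini-Hochberg adjustment over 13544 genes at 0.05), with limma 3.58.1 and DESeq2 1.42.0 as alternatives. Standard errors were derived from the F statistic. The procedure was tested on simulated data.

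The genes, lists and tests were chosen with earlier results of these data known. Named were all genes with a symbol, those highest, most or least even, with the largest ratios or nearest to a limit, and called relatives and neighbours with the smallest adjusted p. The run edges, the other relatives and the 3 of the 24 genes that these criteria did not name were added after their values were seen. No 2 libraries of a group differed as little as sampling noise (lowest chi-square per degree of freedom 41.3).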

Additional observations from a re-analysis of the deposited data

How the results depend on the processing

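The rule found 24 genes with TMM-scaled CPM and 25 with DESeq2 size factors. It found 10 at a control limit of 0.25 CPM, 100 at 1 CPM, 3 at an arsenite limit of 2 CPM and 100 at 0.5 CPM, which follow from the limits themselves. With every control below 0.5 CPM it found 16. Without arsenite replicate 1, 2 or 3 it found 33, 30 and 42. Leaving out an arsenite library removes a condition of the rule, so all 24 genes had to stay and the number could not fall. Without control replicate 1, 2 or 3 it found 26, 29 and 23, of which 19, 23 and 19 were among the 24. Counts of calls depended strongly on single libraries. Upward calls over all genes, 276 in the full set, were 16 to 233 with a library left out, lowest without arsenite replicate 2, 23 at a false discovery rate of 0.01 and 821 with DESeq2. Calls among the 24 genes, 17 in the full set, were 1 to 13 with a library left out and 2 at 0.01. Calls among their relatives, 11 in the full set, were 0 to 18, 0 at 0.01 and 47 with DESeq2. Calls among their neighbours, 1 in the full set, were 0 to 3, 0 at 0.01 and 3 with DESeq2. The cause of these shifts was not tested.

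With the replicate number as a replicate block, 145 genes were called higher, 7 of the 24, 8 relatives and 1 neighbour. Same-numbered samples had correlations of deviations of 0.008, -0.111 and 0.187, so the numbers are not taken as pairs. The median log2 fold change of the 24 genes lay between 2.78 and 3.15 over its 10 alternatives, none of 240 single values changed sign, and 16 moved. The rule set each arsenite library of the 24 genes above their control mean, and in these data each also lay above every control library. A change of sign was therefore hardly possible. Nothing is read from its absence. The moves of MpCAT1, Mp5g12340 and MpPOD154, to 8.56 to 8.82, came without the library that held nearly all their control reads. Libraries gave 0 to 34 control reads per gene, which limits the precision of each ratio.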

Other observations

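Outside the 24 genes, 10 tested genes with a control mean below 0.5 CPM were also called higher, among them MpGST38 and MpSQC2, which were left out by ID. MpGST38, a glutathione S-transferase, had 2.95, 3.93 and 4.40 CPM with arsenite and 0.337, 0.487 and 0.448 CPM in controls. The other 8 fell short of 1 CPM in at least 1 arsenite library. Mp6g15180 had 1.30, 0.812 and 0.489 CPM with arsenite and 0, 0.0375 and 0.0320 CPM in controls (log2 fold change 5.26 ± 0.78, adjusted p = 0.0193, edgeR), and the call was lost without arsenite replicate 2 or any 1 control replicate (adjusted p up to 0.0823). MpABCG5, by its symbol an ABC transporter, had 0.982, 2.13 and 1.77 CPM with arsenite and 0.379, 0.450 and 0.224 CPM in controls (2.23 ± 0.43, adjusted p = 0.0395, edgeR). Its call was lost in 5 of 6 refits without 1 library.

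Among the 71 genes that reached 1 CPM in arsenite replicate 3 alone, 9 had a symbol of which 5 were MpLEA genes and 1 was MpLEAL3. MpLEA-like24 had 0.412, 0.203 and 4.21 CPM in arsenite replicates 1, 2 and 3 and a control mean of 0.281 CPM. MpLEA-like37 had 0.127, 0.237 and 2.71 CPM with arsenite and 0 reads in every control. Of the 71 genes 41 were tested and 1 was called, upward, where 2.04% of all tested genes were called higher. Nothing is read from that count, because the 71 were chosen by these values. These genes were named after their values were seen.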
